A study of Mus musculus with 2 samples.

Results

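The genes described here are the mouse axon guidance families: the semaphorins and their plexin receptors, the Slits and their Robo receptors, the netrins, and the ephrins with the Eph receptor tyrosine kinases. All genes whose symbol belongs to one of these families by its stem and number were taken, which gave 63 rows with 61 symbols out of 27998 genes in the deposited matrix, because Ntn5 was listed in 3 rows. The rule that picks the genes uses symbols and no measured value. The data are single-cell RNA counts from the whole mesentery, the membrane that carries vessels, fat and immune cells to the gut. It came from 2 male wild-type C57BL/6N mice that had received no treatment; the labels give a shared birth date and no age at harvest. Each mouse gave 1 library, made with version 2 of the Chromium 3′ chemistry after Liberase DH digestion. Both mice belong to a single group; all comparisons below set cell classes against each other within the same animals.

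Semaphorins, Slits, netrins and ephrins were named for steering growing axons, and they are also used outside the nervous system, among them in blood vessel patterning and in the movement of immune cells. Secreted class 3 semaphorins act mostly through neuropilin and class A plexin complexes, membrane-bound semaphorins of classes 4 to 7 bind plexins directly, Slits bind Robo receptors, and netrins bind Dcc, neogenin and the Unc5 receptors. Ephrin-A ligands are tethered to the membrane by a lipid anchor and ephrin-B ligands span it, and both are read by Eph receptors on a touching cell.

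The promoters of 6 members that the results turn on are shown first, 4 that were highest in vascular classes (Robo4, Sema3g, Efnb2 and Sema7a) and 2 that were highest in fibroblast-like or mesothelial-like cells (Slit2 and Efna5). They are the bases just before the RefSeq start on build GRCm38.p6, up to 250 and stopping at the first annotated exon, read 5′ to 3′ on the strand of the gene. The windows are Robo4 at chr9:37401722-37401896, plus strand; Sema3g at chr14:31217623-31217859, plus strand; Efnb2 at chr8:8661243-8661492, minus strand; Sema7a at chr9:57939862-57940111, plus strand; Slit2 at chr5:47982905-47983137, plus strand; and Efna5 at chr17:62881318-62881567, minus strand. Capitals mark matches on either strand to 4 short motifs, none of which overlap here. GGGCGG is the GC box bound by Sp factors. CAGCTG is an E-box, the site of basic helix-loop-helix factors. CATTCC is the core that TEAD factors bind. TATAAA is the TATA box.
Robo4: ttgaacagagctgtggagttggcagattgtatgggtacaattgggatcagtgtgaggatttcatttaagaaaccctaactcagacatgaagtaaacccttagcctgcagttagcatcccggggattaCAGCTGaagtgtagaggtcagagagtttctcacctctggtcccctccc
Sema3g: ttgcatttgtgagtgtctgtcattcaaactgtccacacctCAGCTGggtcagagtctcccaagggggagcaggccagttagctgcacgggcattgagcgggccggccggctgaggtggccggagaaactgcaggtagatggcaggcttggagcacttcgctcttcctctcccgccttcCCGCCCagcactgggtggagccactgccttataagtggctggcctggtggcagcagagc
Efnb2: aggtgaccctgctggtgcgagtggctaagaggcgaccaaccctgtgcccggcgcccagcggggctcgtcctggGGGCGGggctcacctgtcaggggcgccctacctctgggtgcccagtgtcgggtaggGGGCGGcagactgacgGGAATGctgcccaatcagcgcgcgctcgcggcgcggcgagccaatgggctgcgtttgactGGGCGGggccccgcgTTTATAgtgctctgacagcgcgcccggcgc
Sema7a: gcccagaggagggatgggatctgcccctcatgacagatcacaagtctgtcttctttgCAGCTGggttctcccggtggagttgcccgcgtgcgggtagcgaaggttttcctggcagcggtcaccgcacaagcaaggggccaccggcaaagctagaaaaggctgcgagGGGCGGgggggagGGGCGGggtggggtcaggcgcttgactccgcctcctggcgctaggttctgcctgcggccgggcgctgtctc
Slit2: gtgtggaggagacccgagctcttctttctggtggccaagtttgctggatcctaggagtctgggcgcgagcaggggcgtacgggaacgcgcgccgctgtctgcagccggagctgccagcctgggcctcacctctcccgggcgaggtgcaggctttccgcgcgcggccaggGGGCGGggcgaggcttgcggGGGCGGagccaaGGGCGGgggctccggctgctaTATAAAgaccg
Efna5: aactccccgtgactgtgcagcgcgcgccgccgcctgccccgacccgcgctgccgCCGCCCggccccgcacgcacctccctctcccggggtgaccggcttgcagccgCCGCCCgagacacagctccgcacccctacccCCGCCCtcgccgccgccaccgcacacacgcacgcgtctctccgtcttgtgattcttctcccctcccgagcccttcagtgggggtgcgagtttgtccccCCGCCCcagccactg
The search also covered CCGGAA, which holds the core bound by ETS factors. AGATAA, bound by GATA factors, was covered too. TGACTCA, bound by AP-1, was the last. None of these was in the 6 windows. The Robo4 window holds 1 CAGCTG and no GC box, whereas Efna5 holds 4 GC boxes and Efnb2 holds 3 with 1 TATA box and 1 TEAD site. Of the 61 symbols 53 were in the RefSeq promoter table, with 69 starts. GGGCGG lay within 250 bases upstream of 48 of those 69 starts (69.6%), against 32.7% of all 32851 promoters and 42.6% of the 21263 promoters of protein-coding genes. CAGCTG was found at 17.4% of the member starts and 12.1% of protein-coding promoters. CATTCC was found at 10.1% of the member starts and 12.6% of all promoters. TATAAA was found at 2.90% and 12.4%. CCGGAA was found at 8.70% and 12.0%, AGATAA at 4.35% and 9.99%, and TGACTCA at 2.90% and 4.46%. A match describes the letters in the window and nothing more.

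The matrix held 3204 barcodes, 1517 in library 1 and 1687 in library 2, with 5137671 and 5563521 UMIs (counted RNA molecules) and no barcode sequence in common. After filters 3100 cells were clustered without the guidance genes, and 11 classes were named from their markers: fibroblast-like (468 and 552 cells in libraries 1 and 2), endothelial-like (177 and 143), T cell-like (136 and 120), mesothelial-like (67 and 178), B cell-like (134 and 101), macrophage-like (114 and 119), ILC2-like (92 and 90), monocyte-like (74 and 106), pericyte-like (72 and 83), dendritic-like (47 and 87) and NK/ILC1-like (59 and 59). A further 22 cells were not named. Each class showed its defining markers; the 11 mesothelial markers summed to 5925 and 5694 CPM in mesothelial-like cells of libraries 1 and 2, where CPM is UMIs of a gene per 1000000 UMIs of that class in that library. Markers of other cell types were present in several classes. Pericyte-like cells held all 12 endothelial markers at 7278 and 7292 CPM, 0.724 times the endothelial-like level. Their 11 pericyte markers summed to less, 3735 and 3952 CPM. Mesothelial-like cells held all 10 fibroblast markers at 14583 and 13354 CPM. Endothelial-like cells held erythroid markers at 12.8 and 19496 CPM, so almost entirely in library 2. They also held 8 of 8 adipocyte markers at 1192 and 2329 CPM. Lymphatic endothelial markers were at 29.9 CPM in library 1 and 686 CPM in library 2 of this class. The dendritic-like class held all 10 fibroblast markers at 9557 and 12682 CPM. ILC2-like cells held all 8 T cell markers found in the matrix, at 727 and 765 CPM. NK/ILC1-like cells held 7 of these at 666 and 1174 CPM, beside 2890 and 2547 CPM in T cell-like cells. The part of this RNA in the results was not tested except where a value without it is given.

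Of the 63 rows, 34 had enough counts to be tested across the classes. The other 29 were too low: 6 rows of 4 symbols (Slit1, Epha6, Epha8 and Ntn5) had no UMI in the named classes, and the other 23 had up to 72 UMIs over all cells. The tested members comprised 14 of 20 semaphorins, 6 of 9 plexins, 2 of 3 Slits, 1 of 4 Robo genes, 2 of 5 netrin rows, 3 of 5 ephrin-A, 2 of 9 EphA, 2 of 3 ephrin-B and 2 of 5 EphB genes. All 34 differed among the 11 classes at an edgeR adjusted p under 0.05, where 87.3% of all 7546 tested genes did. This count therefore says little about these families in particular. A sum over all 63 rows reached 1749.9 and 2093 CPM in pericyte-like cells, 1829 and 1898 CPM in mesothelial-like, 1769 and 1925 CPM in endothelial-like and 1077 and 1073 CPM in fibroblast-like cells. In the 7 immune classes it lay between 59.3 and 149.5 CPM in B cell-like cells and 463 and 719 CPM in dendritic-like cells. The mesothelial, endothelial and pericyte sums overlapped, and every stromal or vascular sum lay above every immune one.

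In 24 members the mean of the libraries was at least 50 CPM in some class. The highest class was endothelial-like for 7, mesothelial-like for 6, fibroblast-like for 4, pericyte-like for 4, and macrophage-like, monocyte-like and NK/ILC1-like for 1 each. In 20 of the 24 both libraries of the highest class lay above both libraries of the next. The other 4 were Sema3c, Sema6b, Sema7a and Plxna2. In the immune classes other than dendritic-like, Slit2, Slit3, Ntn1, Ntn4 and Sema3c reached at most 6.03 CPM in any library. In all 7 immune classes Robo4, Sema3g, Sema3f and Sema5a reached at most 9.30 CPM, and Efna1, Efnb1, Efnb2, Epha2, Plxna2, Sema4c, Sema6a, Sema6b and Sema7a at most 29.4 CPM. Counts are 1 per captured molecule near its 3′ end and are not divided by gene length.

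**Figure D1:**
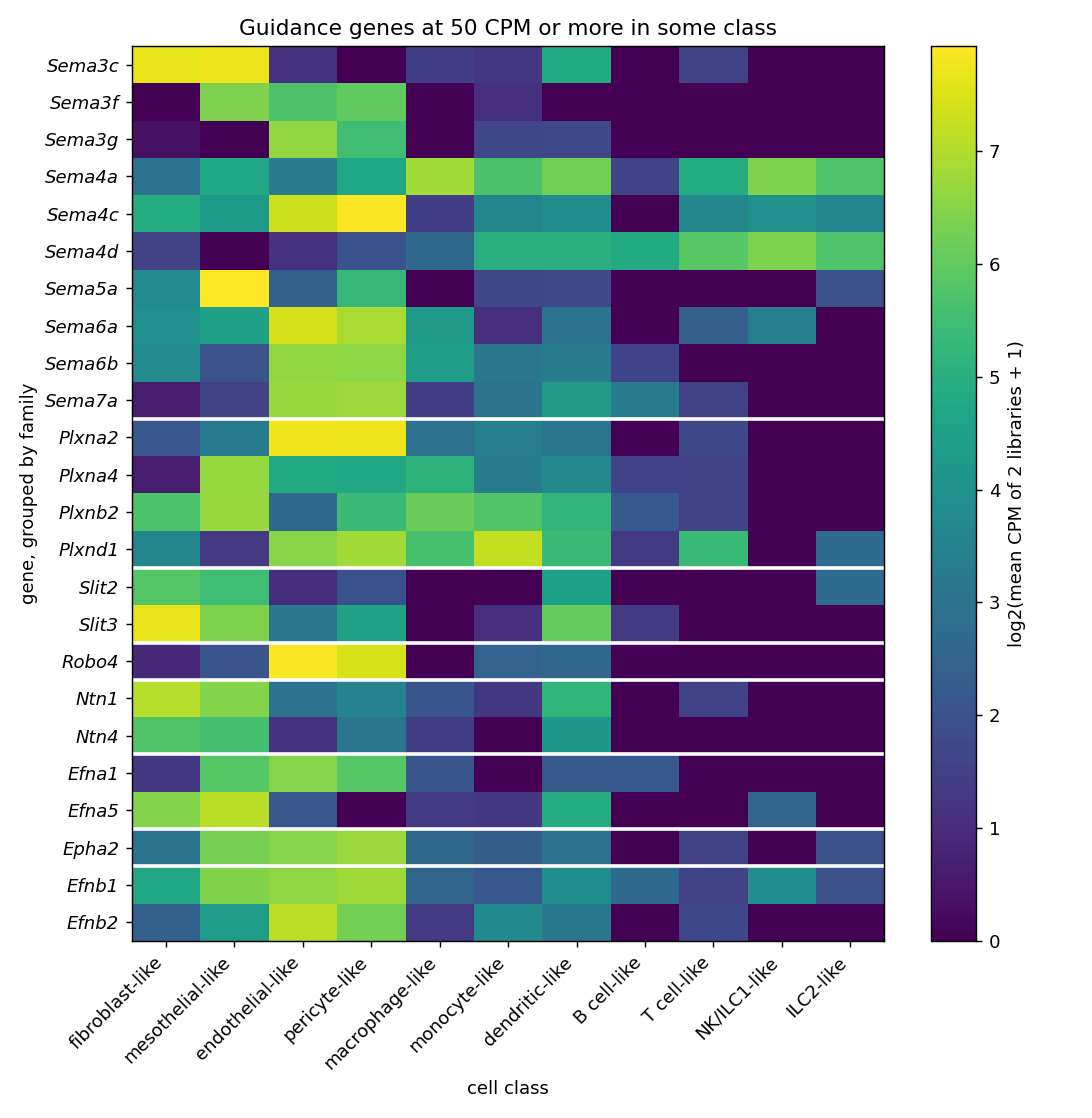
Colour gives log2 of the mean CPM of 2 libraries plus 1 for the 24 members at 50 CPM or more in some class (rows, grouped by family) in each of 11 cell classes (columns). Slit and netrin rows are bright in fibroblast-like and mesothelial-like columns, Robo4 and Plxna2 in endothelial-like and pericyte-like columns, and Sema4a and Sema4d in immune columns.

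Comparisons among the 3 largest non-immune classes asked which guidance genes separate connective tissue, the serosal lining and vessels. Between fibroblast-like and mesothelial-like cells 20 of 34 members were called, where 34.5% of all genes were: 5 were higher in fibroblast-like cells (background 18.3%) and 15 were lower (background 16.2%). The median log2 fold change of the members was -0.98, against 0.03 over all genes. Leaving out library 1 left 3 higher members and leaving out library 2 left 2, and without library 2 the lower count fell from 15 to 8. Between fibroblast-like and endothelial-like cells 28 of 34 were called (background 44.7%), 11 higher (background 24.6%) and 17 lower (background 20.1%), with a median of -0.88 against 0.11 over all genes. Between mesothelial-like and endothelial-like cells 24 of 34 were called (background 44.1%), 14 higher (background 23.8%) and 10 lower (background 20.3%), with a median of 0.09 against 0.08. The comparisons share sums with each other, so their counts are not independent. Each fold change below is the first-named class of its comparison minus the second, with fibroblast-like first, then mesothelial-like, and lymphoid before myeloid.

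**Figure D2:**
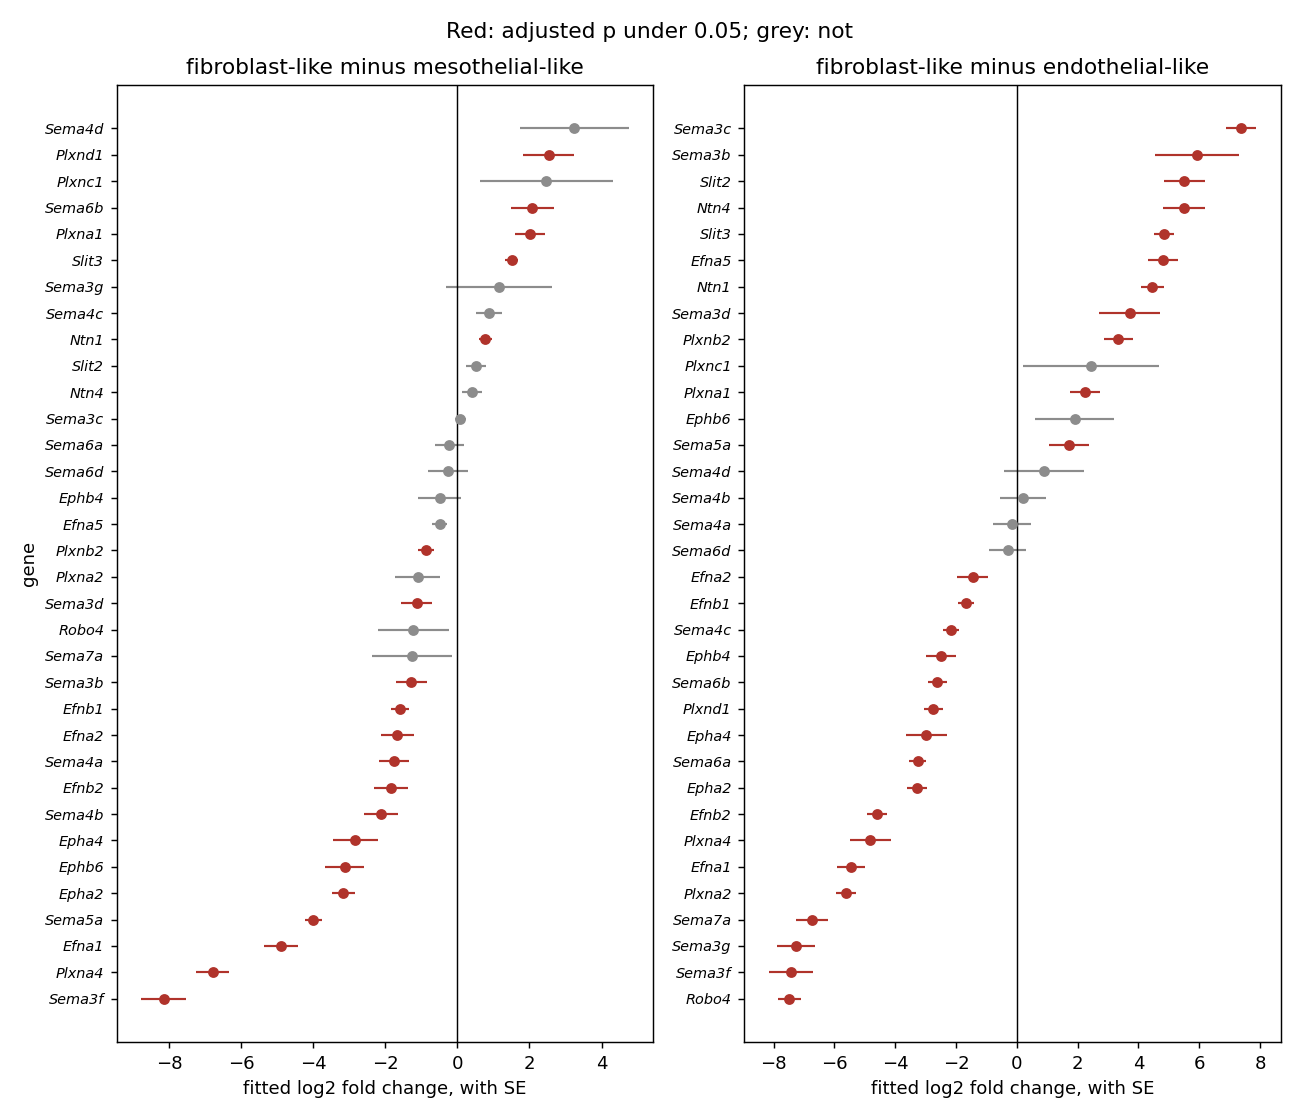
Fitted log2 fold changes (points) with standard errors (bars) of the tested members for fibroblast-like minus mesothelial-like cells (left) and minus endothelial-like cells (right); red points had an edgeR adjusted p under 0.05. Sema3f, which had 0 UMIs in fibroblast-like cells, sits at -8.15 and -7.43, values that depend on how a count of 0 is handled.

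Slits were fibroblast and mesothelial genes in these libraries. Slit3 (chr11:35121224-35708507, GRCm38), a secreted repellent, was at 196 and 198 CPM in fibroblast-like cells of libraries 1 and 2, 96.2 and 69.1 in mesothelial-like, 8.55 and 7.23 in endothelial-like and 15.3 and 30.1 in pericyte-like cells. The fibroblast-like libraries lay above all others, and Slit3 was higher there than in mesothelial-like cells (log2 fold change of 1.51 ± 0.18 (SE) with edgeR adjusted p = 1.87e-09) and than in endothelial-like cells (log2 fold change of 4.83 ± 0.33 (SE) with edgeR adjusted p = 1.93e-16). Slit2 (chr5:47983138-48307733) was at 50.4 and 59.2 CPM in fibroblast-like and 35.8 and 50.4 CPM in mesothelial-like cells. The lower fibroblast-like and the higher mesothelial-like library were almost equal, and the difference was not called (log2 fold change of 0.52 ± 0.27 (SE) with edgeR adjusted p = 0.149), while Slit2 was higher in fibroblast-like than in endothelial-like cells (log2 fold change of 5.51 ± 0.67 (SE) with edgeR adjusted p = 3.05e-09). Slit1 had no UMI; the limit that 3 UMIs set in fibroblast-like cells was 1.70 CPM in library 1 and 1.71 CPM in library 2.

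Of the Robo genes, Robo4 was a vascular gene here. Robo4 (chr9:37401897-37415115), the endothelial Robo, was at 220.1 and 246 CPM in endothelial-like and 147 and 205 CPM in pericyte-like cells, against 0.566 and 1.14 CPM in fibroblast-like and 4.48 and 1.98 CPM in mesothelial-like cells. The vascular and the other libraries did not overlap, and Robo4 was lower in fibroblast-like than in endothelial-like cells (log2 fold change of -7.48 ± 0.39 (SE) with edgeR adjusted p = 2.17e-20). With every cell thinned to 1000 UMIs, Robo4 was seen in 19.3% (exact 95% interval 13.7% to 26.0%) of endothelial-like cells in library 1 and 23.1% (exact 95% interval 16.3% to 31.2%) in library 2, intervals that cover counting error only. It was seen in none of 126 and 97 B cell-like cells, which allows shares of up to 2.38% and 3.09%. Unthinned, the endothelial-like shares were 40.7% and 45.5%, at median depths of 2151 and 2294 UMIs, beside 1866 and 1762 UMIs in B cell-like cells. Robo1 (chr16:72308306-73046095), a widely used Slit receptor, was too low to be tested across classes. It was at 19.2 and 18.8 CPM in fibroblast-like cells and had 1 and 0 UMIs in mesothelial-like and 0 and 0 UMIs in endothelial-like cells. Robo2 and Robo3 had 8 and 2 UMIs over all cells.

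Side by side, the 3 Slit rows summed to 247 and 257 CPM in fibroblast-like and 10.7 and 7.23 CPM in endothelial-like cells. The 4 Robo rows summed to 20.9 and 19.9 CPM and 222 and 253 CPM in the same classes. The contrast in the Robo sum was carried by Robo4, while Robo1 had its higher level in fibroblast-like cells, where the Slits were. Whether Slits bind Robo4 was not tested. In mesothelial-like cells the sums were 132 and 119.5 CPM for Slits and 6.72 and 1.98 CPM for Robo genes.

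**Figure D3:**
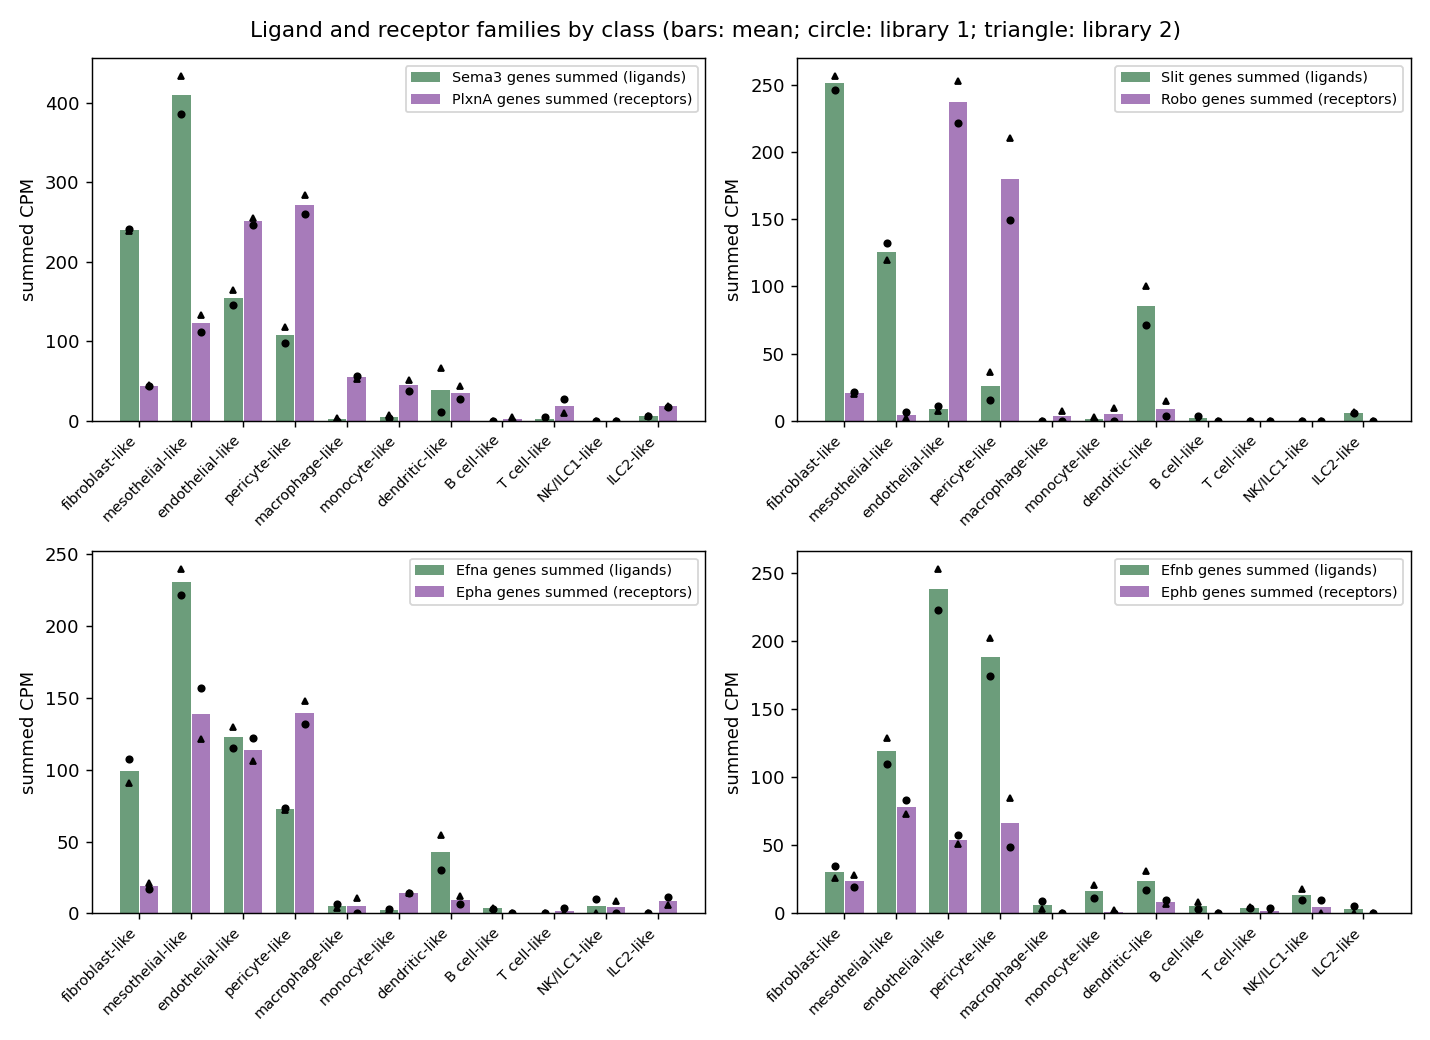
Summed CPM of ligand genes (green) and receptor genes (purple) in 11 cell classes for class 3 semaphorins with class A plexins, Slits with Robo genes, ephrin-A with EphA and ephrin-B with EphB genes; bars are means of 2 libraries, circles library 1 and triangles library 2. Slit bars are tallest in fibroblast-like cells, where the Robo bar is short, and Robo bars are tallest in endothelial-like and pericyte-like cells.

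Netrins, too, had their highest levels in fibroblast-like cells. Ntn1 (chr11:68209364-68400823), a secreted laminin-related cue, was at 131 and 131 CPM in fibroblast-like, 82.8 and 89.9 in mesothelial-like, 2.14 and 12.0 in endothelial-like and 3.06 and 18.1 in pericyte-like cells. It was higher in fibroblast-like than in mesothelial-like cells (log2 fold change of 0.78 ± 0.19 (SE) with edgeR adjusted p = 9.27e-04), a call lost with DESeq2 (DESeq2 adjusted p = 0.186) and with either library left out (edgeR adjusted p = 0.087 without library 1 and without library 2), when the log2 fold change was 0.74 and 0.87. With 1 library left out each compared class is a single sum, which is assumed to vary like the other classes. Against endothelial-like cells the difference was larger (log2 fold change of 4.46 ± 0.38 (SE) with edgeR adjusted p = 1.47e-13). Ntn4 (chr10:93640681-93747207), a basement membrane netrin, was at 54.3 and 53.5 CPM in fibroblast-like and 51.5 and 43.5 CPM in mesothelial-like cells, which was not called (log2 fold change of 0.40 ± 0.28 (SE) with edgeR adjusted p = 0.29). It was higher in fibroblast-like than in endothelial-like cells (log2 fold change of 5.49 ± 0.68 (SE) with edgeR adjusted p = 5.41e-09), where it was at 0 and 2.41 CPM. Of the receptors, Dcc and Unc5d had no UMI in any class. Neo1, the gene of neogenin, was at 179 and 134 CPM in mesothelial-like cells, beside 22.6 and 18.8 CPM in fibroblast-like ones (log2 fold change of -2.70 ± 0.24 (SE) with edgeR adjusted p = 5.62e-13), so Ntn1 and Neo1 differed in opposite directions between these classes. Unc5b, a vascular netrin receptor, was at 51.3 and 57.8 CPM in endothelial-like and 2.83 and 4.55 CPM in fibroblast-like cells (log2 fold change of -3.55 ± 0.50 (SE) with edgeR adjusted p = 6.07e-08).

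The class 3 semaphorins divided the non-immune classes. Sema3c (chr5:17574281-17730268) was at 196 and 203 CPM in fibroblast-like and 192 and 234 CPM in mesothelial-like cells, which overlapped and were not called different (log2 fold change of 0.08 ± 0.16 (SE) with edgeR adjusted p = 0.729). It was at 0 and 2.41 CPM in endothelial-like cells, and fibroblast-like cells were higher (log2 fold change of 7.37 ± 0.50 (SE) with edgeR adjusted p = 8.88e-17). Sema3f (chr9:107681500-107710475), a ligand that prefers neuropilin 2, was at 91.8 and 73.1 CPM in mesothelial-like, 59.8 and 43.4 in endothelial-like and 58.1 and 66.3 in pericyte-like cells. No Sema3f UMI was found among the fibroblast-like cells, so against a limit of 3 UMIs over both libraries its level was at least 92.6-fold higher in mesothelial-like and at least 61.2-fold higher in endothelial-like cells. Both differences were called (edgeR adjusted p = 2.56e-14 and 1.67e-11). Mesothelial-like and endothelial-like cells were not called different (log2 fold change of 0.72 ± 0.33 (SE) with edgeR adjusted p = 0.0726), although their libraries did not overlap.

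Sema3g (chr14:31217860-31230352), an endothelial semaphorin, was at 85.5 and 111 CPM in endothelial-like and 39.8 and 48.2 CPM in pericyte-like cells. It had 1 UMI in fibroblast-like cells and none in mesothelial-like cells, at least 47.4-fold below endothelial-like cells for the latter (edgeR adjusted p = 1.25e-10). Sema3b and Sema3d, both secreted, were at 40.3 and 43.5 and 35.8 and 41.5 CPM in mesothelial-like cells and at 15.9 and 14.2 and 17.6 and 13.7 CPM in fibroblast-like cells, the first of each set in library 1. Both were lower in fibroblast-like cells (edgeR adjusted p = 0.0158 for Sema3b and 0.0393 for Sema3d). Sema3a was not tested; its level was 17.9 and 41.5 CPM in mesothelial-like cells. Sema3e, whose known receptor is Plxnd1, was not tested either, at 10.8 and 7.40 CPM in fibroblast-like cells. Plxnd1 was at 94.0 and 89.1 CPM in endothelial-like cells.

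Of the neuropilins that receive class 3 semaphorins, Nrp1 was highest in the vascular classes and Nrp2 in macrophage-like cells. Nrp1 was at 942 and 968 CPM in endothelial-like, 1028 and 943 in pericyte-like, 215 and 214 in macrophage-like, 149 and 176 in fibroblast-like and 29.1 and 24.7 in mesothelial-like cells. In the other myeloid classes Nrp1 was lower, at 31.7 and 93.0 CPM in monocyte-like and 91.2 and 164 CPM in dendritic-like cells. It was higher in fibroblast-like than in mesothelial-like cells (log2 fold change of 2.83 ± 0.29 (SE) with edgeR adjusted p = 1.75e-11) and lower in mesothelial-like than in endothelial-like cells (log2 fold change of -5.14 ± 0.28 (SE) with edgeR adjusted p = 1.07e-20). Nrp2 was at 249 and 323 CPM in macrophage-like and 203 and 195 CPM in endothelial-like cells, and at 11.3 and 13.7 CPM in fibroblast-like cells. The 7 class 3 semaphorins summed to 385 and 434 CPM in mesothelial-like cells, where Nrp1 was low.

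**Figure D4:**
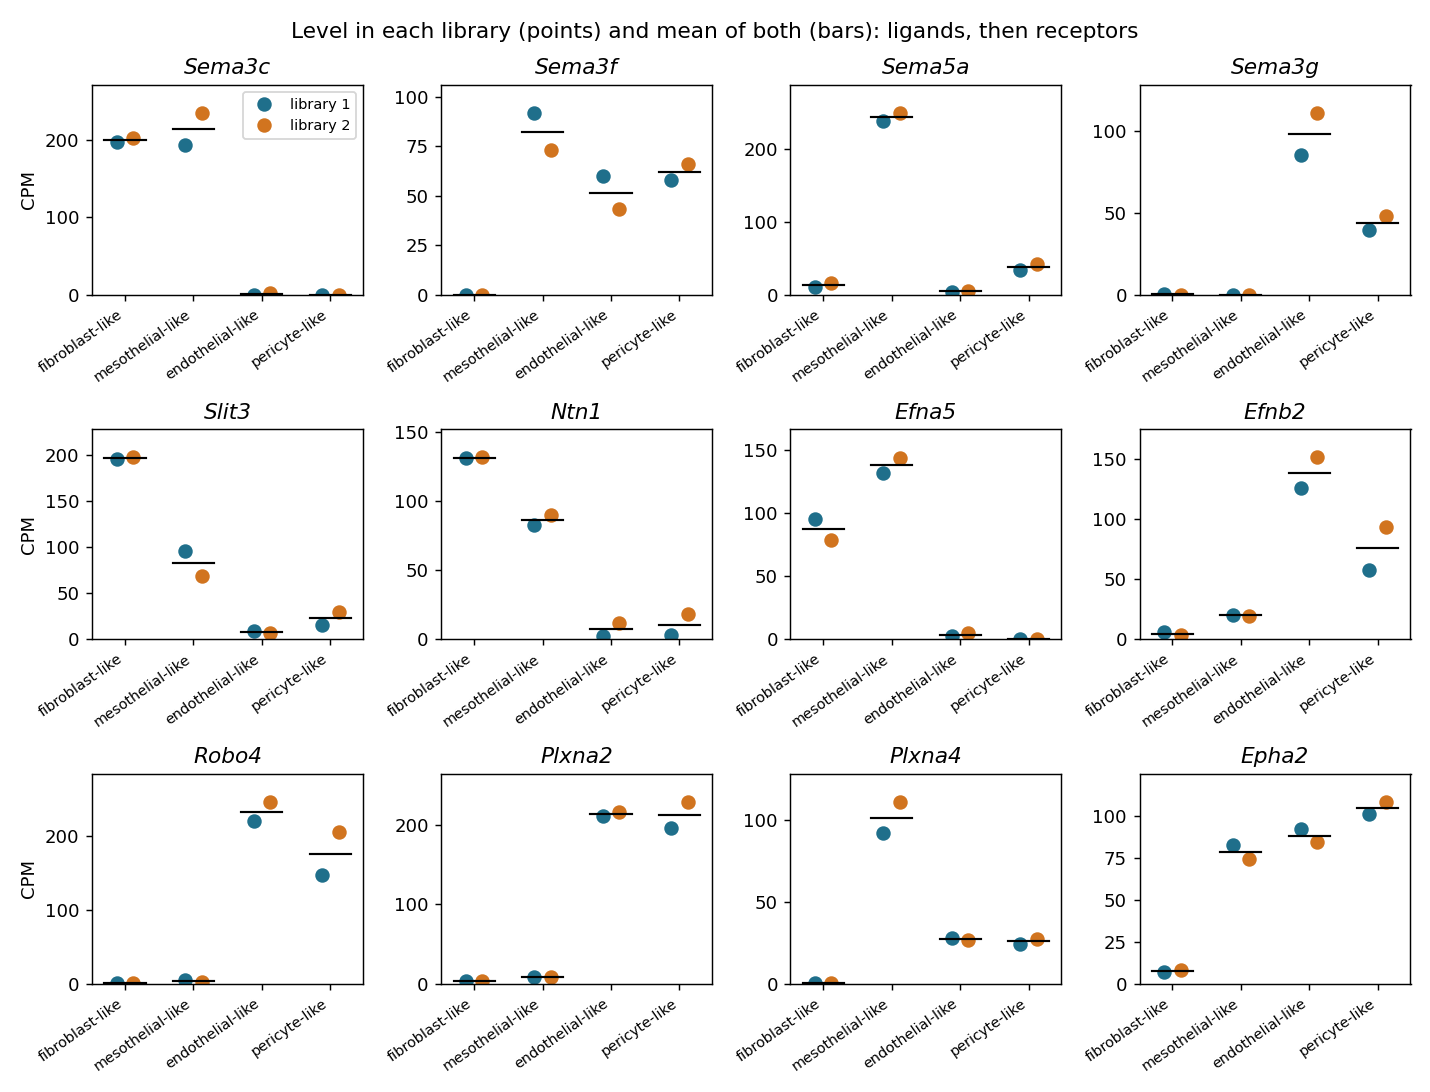
CPM (vertical axes, starting at 0) of 12 members in the 4 non-immune classes; points are libraries 1 and 2 and bars their mean. Sema5a and Plxna4 stand apart in mesothelial-like cells, Slit3 and Ntn1 in fibroblast-like cells, and Sema3g and Efnb2 are highest in endothelial-like cells. Robo4 is high in endothelial-like and pericyte-like cells, and Sema3f is at 0 in fibroblast-like cells.

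Sema5a (chr15:32244810-32696341), a transmembrane semaphorin with thrombospondin repeats, marked mesothelial-like cells. It was at 237 and 249 CPM in mesothelial-like cells, 33.7 and 42.2 in pericyte-like, 10.8 and 15.4 in fibroblast-like and 4.27 and 4.82 in endothelial-like cells. The mesothelial-like libraries lay far above the rest, and the differences were called against fibroblast-like cells (edgeR adjusted p = 4.65e-18) and endothelial-like cells (log2 fold change of 5.70 ± 0.41 (SE) with edgeR adjusted p = 1.00e-15). In cells thinned to 1000 UMIs, Sema5a was seen in 30.3% and 24.9% of mesothelial-like and 1.30% and 1.69% of fibroblast-like cells. Unthinned shares were 71.6% and 65.2% and 3.85% and 4.35%, at median depths of 6780.0 and 5757 and 3654 and 3028 UMIs.

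Sema4c, Sema6a, Sema6b and Sema7a were highest in the endothelial-like or pericyte-like classes, unlike Sema4a and Sema4d, which are described with the immune classes. Sema4c (chr1:36548639-36558349), a ligand of Plxnb2, was at 242 and 232 CPM in pericyte-like, 139 and 173 in endothelial-like, 29.4 and 28.4 in fibroblast-like and 22.4 and 15.8 in mesothelial-like cells, and lower in fibroblast-like than in endothelial-like cells (log2 fold change of -2.17 ± 0.26 (SE) with edgeR adjusted p = 7.29e-10). Plxnb2 was at 55.1 and 27.1 CPM in pericyte-like and 6.41 and 4.82 CPM in endothelial-like cells. Sema6a was at 156 and 185 CPM in endothelial-like, 107 and 136 in pericyte-like and 14.2 and 15.4 in fibroblast-like cells (fibroblast-like minus endothelial-like log2 fold change of -3.26 ± 0.28 (SE) with edgeR adjusted p = 7.91e-14). Sema6b (chr17:56123085-56140343) was at 105 and 91.5 CPM in endothelial-like, 70.4 and 120.5 in pericyte-like and 14.7 and 11.9 in fibroblast-like cells (fibroblast-like minus endothelial-like log2 fold change of -2.61 ± 0.31 (SE) with edgeR adjusted p = 1.34e-09). Their textbook receptors differed in place: Plxna2 was high in the same vascular classes and Plxna4 in mesothelial-like cells. Sema7a (chr9:57940112-57962865), a lipid-anchored semaphorin, was at 96.2 and 111 CPM in endothelial-like and 94.8 and 120.5 CPM in pericyte-like cells, which overlapped, and at 1.13 and 0 CPM in fibroblast-like cells (fibroblast-like minus endothelial-like log2 fold change of -6.73 ± 0.52 (SE) with edgeR adjusted p = 3.26e-15). Plxnc1, its plexin, had no UMI in endothelial-like or mesothelial-like cells and was at 15.6 and 21.1 CPM in macrophage-like and 37.2 and 21.4 CPM in dendritic-like cells. Its exons overlap another gene on the same strand, so some of these counts are uncertain.

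The plexins differed in the class with their highest level. Plxna2 (chr1:194618218-194816869) was at 212 and 217 CPM in endothelial-like and 196 and 229 CPM in pericyte-like cells, which overlapped, and at 3.40 and 3.41 CPM in fibroblast-like cells (fibroblast-like minus endothelial-like log2 fold change of -5.63 ± 0.33 (SE) with edgeR adjusted p = 6.51e-19). Plxna4 (chr6:32144268-32588192) was at 91.8 and 111 CPM in mesothelial-like, 27.8 and 26.5 in endothelial-like, 46.7 and 21.1 in macrophage-like and 0.566 and 0.569 in fibroblast-like cells. It was higher in mesothelial-like cells than in fibroblast-like (fibroblast-like minus mesothelial-like log2 fold change of -6.79 ± 0.47 (SE) with edgeR adjusted p = 1.63e-16) and endothelial-like cells (mesothelial-like minus endothelial-like log2 fold change of 1.97 ± 0.34 (SE) with edgeR adjusted p = 4.40e-06). Plxnb2 (chr15:89155549-89180788) was at 105 and 104 CPM in mesothelial-like, 62.3 and 77.2 in macrophage-like and 56.6 and 44.4 in fibroblast-like cells, and was lower in fibroblast-like than in mesothelial-like cells (log2 fold change of -0.87 ± 0.22 (SE) with edgeR adjusted p = 0.0017). Plxna1 was at 36.2 and 37.6 CPM in fibroblast-like and 11.2 and 9.88 CPM in mesothelial-like ones (log2 fold change of 2.00 ± 0.41 (SE) with edgeR adjusted p = 1.09e-04). Its difference from endothelial-like cells (log2 fold change of 2.24 ± 0.49 (SE) with edgeR adjusted p = 1.76e-04) was not called at the finer resolution of 2.0 (edgeR adjusted p = 0.092), where the endothelial-like class held only 43 and 39 cells because its larger cluster was not named. Plxnd1 (chr6:115954811-115995005) was at 144 and 147 CPM in monocyte-like, 107 and 117 in pericyte-like, 94.0 and 89.1 in endothelial-like and 8.49 and 14.2 in fibroblast-like cells, and was lower in fibroblast-like than in endothelial-like cells (log2 fold change of -2.75 ± 0.32 (SE) with edgeR adjusted p = 5.87e-10). It was higher in fibroblast-like than in mesothelial-like cells (log2 fold change of 2.53 ± 0.70 (SE) with edgeR adjusted p = 0.00321), a call lost without library 2, where the log2 fold change was 4.81 (edgeR adjusted p = 0.0541) and mesothelial-like cells had 0 UMIs. Plxna1, Plxna4 and Sema4c overlap exons of a gene on the other strand, and no source used here says whether the counting used strand.

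Among the ephrins, Efna5 was higher in mesothelial-like than in endothelial-like cells and Efnb2 was lower (edgeR adjusted p = 2.07e-12 and edgeR adjusted p = 8.83e-10), while Efna1, Efna2 and Efnb1 were not called between these classes (edgeR adjusted p = 0.125, edgeR adjusted p = 0.767 and edgeR adjusted p = 0.847). Efna5 (chr17:62604184-62881317) was at 132 and 144 CPM in mesothelial-like cells, 95.7 and 79.1 in fibroblast-like and 2.14 and 4.82 in endothelial-like cells. Its difference between the fibroblast-like and mesothelial-like classes was not called (log2 fold change of -0.49 ± 0.20 (SE) with edgeR adjusted p = 0.0585) although the libraries did not overlap, and Efna5 was higher in fibroblast-like than in endothelial-like cells (log2 fold change of 4.82 ± 0.50 (SE) with edgeR adjusted p = 3.78e-11). Efna1 (chr3:89271733-89281142) was at 72.7 and 104 CPM in endothelial-like, 51.5 and 61.2 in mesothelial-like, 61.2 and 51.2 in pericyte-like and 1.13 and 1.71 in fibroblast-like cells (fibroblast-like minus endothelial-like log2 fold change of -5.47 ± 0.46 (SE) with edgeR adjusted p = 9.99e-14). Efnb2 (chr8:8617434-8661242), a marker of arterial endothelium, was at 126 and 152 CPM in endothelial-like, 58.1 and 93.4 in pericyte-like, 20.1 and 19.8 in mesothelial-like and 5.66 and 3.41 in fibroblast-like cells (fibroblast-like minus endothelial-like log2 fold change of -4.60 ± 0.34 (SE) with edgeR adjusted p = 9.73e-16). It was also lower in fibroblast-like than in mesothelial-like cells (log2 fold change of -1.85 ± 0.47 (SE) with edgeR adjusted p = 0.00142), a call lost without library 2 (edgeR adjusted p = 0.151). Efnb1 (chrX:99136130-99148991) was at 110.1 and 108 CPM in pericyte-like, 91.9 and 101 in endothelial-like, 76.1 and 94.8 in mesothelial-like and 28.9 and 21.6 in fibroblast-like cells (fibroblast-like minus mesothelial-like log2 fold change of -1.59 ± 0.25 (SE) with edgeR adjusted p = 8.98e-07).

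Among the Eph receptors, Epha2 (chr4:141301240-141329384), an epithelial and endothelial Eph, was the 1 gene whose mean of both libraries reached 50 CPM in any class. It was at 101 and 108 CPM in pericyte-like, 91.9 and 84.3 in endothelial-like, 82.8 and 74.1 in mesothelial-like and 6.79 and 7.97 in fibroblast-like cells. Levels in fibroblast-like cells were lower than in mesothelial-like (log2 fold change of -3.16 ± 0.32 (SE) with edgeR adjusted p = 2.28e-11) and endothelial-like cells (log2 fold change of -3.29 ± 0.34 (SE) with edgeR adjusted p = 2.33e-11). Epha4 was at 33.6 and 15.8 CPM in mesothelial-like and 29.9 and 21.7 CPM in endothelial-like cells, Ephb4, a venous endothelial receptor of Efnb2, at 47.0 and 40.9 CPM in endothelial-like cells, and Ephb6, which lacks kinase activity, at 53.7 and 37.5 CPM in mesothelial-like cells. Ephb6 was lower in fibroblast-like cells, at 3.96 and 4.55 CPM (log2 fold change of -3.12 ± 0.54 (SE) with edgeR adjusted p = 8.48e-06). In mesothelial-like cells the 5 ephrin-A rows summed to 222 and 240.0 CPM and the 9 EphA rows to 157 and 122 CPM. In endothelial-like cells the 3 ephrin-B rows summed to 222 and 253 CPM and the 5 EphB rows to 57.7 and 50.6 CPM.

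Pericyte-like levels of endothelial genes are to be read beside the endothelial RNA in that class. Summed over both libraries, the ratio of pericyte-like to endothelial-like CPM was 0.758 for Robo4, 0.715 for Sema6a, 0.549 for Efnb2 and 0.452 for Sema3g, against 0.724 for the endothelial markers. Ratios for Sema4c (1.53), Epha2 (1.19), Efnb1 (1.14) and Plxnd1 (1.22) lay above that of the markers. So did those for Sema3f (1.19), Sema7a (1.05), Plxna2 (0.993), Sema6b (0.971) and Plxna4 (0.949), while Efna1 (0.644) lay below. Sema5a (8.38) and Plxnb2 (7.24) had pericyte-like levels well above the endothelial-like ones. In pericyte-like libraries 1 and 2 Sema5a had 11 and 14 UMIs and Plxnb2 had 18 and 9. The endothelial-like libraries held only 2 and 2 UMIs of Sema5a and 3 and 2 of Plxnb2. The part of the endothelial RNA in these levels was not tested. With pericyte-like cells left out of the fit, the fold changes among the other classes named here kept their direction and their side of the threshold.

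Among the 4 fibroblast-like clusters 9 of 14 tested members differed, where 24% of all genes did; with DESeq2 5 differed, and 17 of 48 with no filter on low counts. The clusters are called by their leading genes: Cxcl14 and Inmt (383 cells), Pi16 and Sbsn (242), Has1 and Ugdh (231), and Mgp and Mfap4 (164). Sema3c was at 438 and 549 CPM in the Pi16 cluster, between 103 and 124 CPM in the libraries of the Has1 and Mgp clusters, and at 33.4 and 22.1 CPM in the Cxcl14 cluster (edgeR adjusted p = 4.38e-18 for any difference). The Pi16 libraries lay above all others, and 261 and 256 of the fibroblast-like Sema3c UMIs of libraries 1 and 2 came from that cluster. Plxna1, a receptor subunit for class 3 semaphorins, was at 82.3 and 92.2 CPM in the Pi16 cluster, 16.7 and 18.7 in the Cxcl14 cluster, 10.5 and 13.7 in the Has1 cluster and 7.91 and 22.5 in the Mgp cluster (edgeR adjusted p = 2.40e-08). Robo1 was at 40.3 and 53.6 CPM in the Pi16 cluster and at 11.9 and 11.3 CPM in the Mgp cluster, the next highest (edgeR adjusted p = 3.14e-05). Ntn4 was at 97.4 and 118 CPM in the Pi16 cluster and 20.4 and 22.1 CPM in the Cxcl14 cluster (edgeR adjusted p = 3.37e-07).

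The Slits were lowest where those 4 genes were highest. Slit2 was at 25.2 and 34.3 CPM in the Pi16 cluster, 44.8 and 68.6 in the Has1 cluster, 66.9 and 66.4 in the Cxcl14 cluster and 83.1 and 71.4 in the Mgp cluster (edgeR adjusted p = 0.00378). Slit3 was at 151 and 114 CPM in the Pi16 cluster, 192 and 236 in the Has1 cluster, 214 and 206 in the Cxcl14 cluster and 273 and 267 in the Mgp cluster (edgeR adjusted p = 7.08e-04). In both genes the Pi16 libraries lay below all others. Ntn1 ranged from 106 and 81.7 CPM in the Cxcl14 cluster to 144 and 169 CPM in the Pi16 cluster, and the 3 clusters other than Cxcl14 overlapped (edgeR adjusted p = 0.0388). Sema3d had no UMI in the Cxcl14 cluster and was at 31.6 and 37.6 CPM in the Mgp cluster and 30.2 and 25.7 CPM in the Pi16 cluster (edgeR adjusted p = 2.71e-05). Sema6b was also called (edgeR adjusted p = 0.0411), with libraries of the Mgp cluster far apart at 39.5 and 7.51 CPM. The guidance genes were kept out of the clustering, but the cells were grouped by genes that may vary with them.

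**Figure D5:**
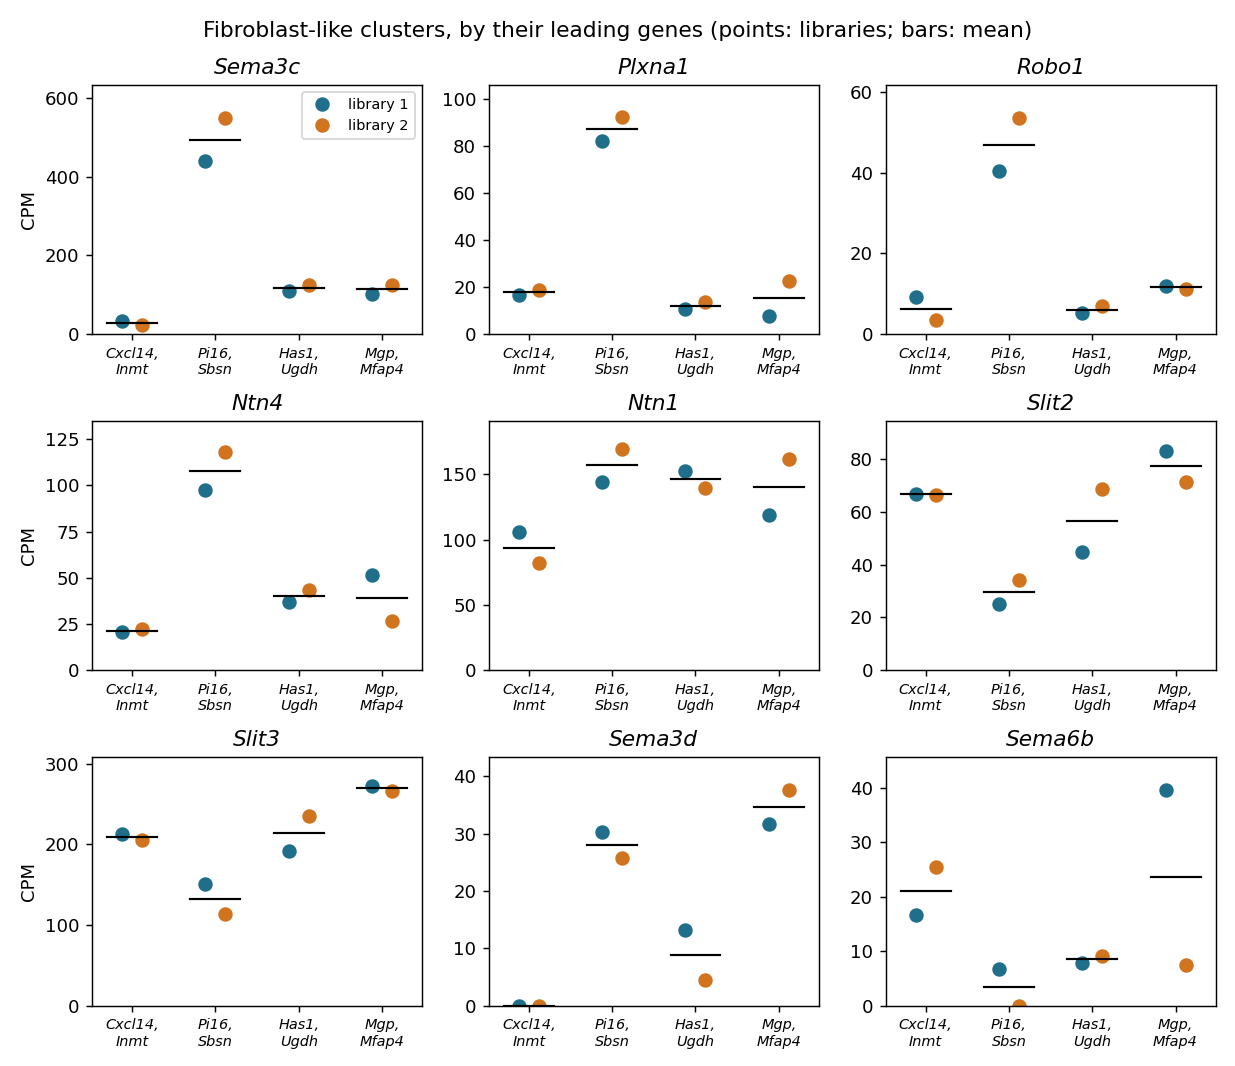
CPM (vertical axes, starting at 0) of the 9 members that differed among the 4 fibroblast-like clusters, named by their leading genes; points are libraries 1 and 2 and bars their mean. Sema3c, Plxna1, Robo1 and Ntn4 stand highest in the Pi16 cluster, and Slit2 and Slit3 stand lowest there.

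In the immune classes few members reached 50 CPM, and the sums are small: 3 UMIs correspond to 29.4 and 26.5 CPM in NK/ILC1-like cells and to 8.64 and 6.98 CPM in monocyte-like cells. Among the 4 lymphoid classes 4 of 34 members differed (Plxna1, Plxnd1, Sema4a and Sema6d), where 21.9% of all genes did. At resolution 2.0 the count was 8. The ILC2-like class then included 26 cells with an ILC2 marker score of 0.74, beside a fibroblast one of 0.69. Sema4a (chr3:88435959-88461182), an immune semaphorin, was at 68.6 and 97.1 CPM in NK/ILC1-like, 86.6 and 18.1 in ILC2-like, 19.8 and 36.9 in T cell-like and 0 and 4.04 in B cell-like cells (edgeR adjusted p = 2.76e-04). The ILC2-like libraries were far apart, from 15 and 3 UMIs. At resolution 2.0 the ILC2-like class included a cluster of 54 cells with Foxp3 among its 10 leading genes. In that cluster 5 T cell markers were more than 2-fold above the other cells. The part of T cell RNA in the ILC2-like levels was not tested. Plxnd1 was at 43.5 and 36.9 CPM in T cell-like and 0 and 0 CPM in NK/ILC1-like cells (edgeR adjusted p = 0.00128). Sema4d (chr13:51685529-51793747), the T cell semaphorin that binds Plxnb1 and Plxnb2, was at 88.2 and 79.4 CPM in NK/ILC1-like cells, from 9 and 9 UMIs, 55.4 and 60.0 in T cell-like, 57.7 and 48.2 in ILC2-like and 18.7 and 36.4 in B cell-like cells.

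Among the macrophage-like, monocyte-like and dendritic-like classes 13 of 34 members differed, where 31.5% of all genes did. Dendritic-like cells were made of 2 clusters, of which 1, with 59 cells, carried the 10 fibroblast markers at 20479 CPM, against 740.2 CPM in the other, with 75 cells. The dendritic markers were weak in the 59 cells, at 614 and 530 CPM in libraries 1 and 2, against 3615 and 3193 CPM in the 75 cells. B cell-like cells held them at 731 and 659 CPM, so the name of the 59 cells is uncertain. Slit3 was at 121 and 118 CPM in the 59 cells and 5.81 and 0 CPM in the 75 cells, and Ntn1 at 96.9 and 49.5 and 0 and 0 CPM, so the dendritic-like levels of these genes came from the cluster with fibroblast RNA. Without that cluster 8 myeloid members differed, 6 of them among the 13. Sema4a was at 128 and 98.3 CPM in macrophage-like, 87.2 and 133 in the 75 dendritic-like cells and 46.1 and 53.5 in monocyte-like cells (edgeR adjusted p = 0.0067 with all cells). Plxnd1 was at 144 and 147 CPM in monocyte-like and 40.5 and 56.1 CPM in macrophage-like cells (edgeR adjusted p = 1.52e-05 with all cells), and the libraries did not overlap.

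Between all lymphoid and all myeloid cells 16 of 39 members were called, where 42.5% of all genes were, a share near the background. Sema4d was the 1 member higher in lymphoid cells (background 15.3%), at 46.0 and 52.5 CPM against 15.6 and 30.8 CPM (log2 fold change of 1.06 ± 0.31 (SE) with edgeR adjusted p = 0.00639). That call was lost with DESeq2 (DESeq2 adjusted p = 0.087) and without library 1 (edgeR adjusted p = 0.162). The other 15 were lower (background 27.2%), and 7 remained without the 59 cells with fibroblast RNA. Plxnb2 was at 2.36 and 1.35 CPM in lymphoid and 44.6 and 60.8 CPM in myeloid cells (log2 fold change of -4.78 ± 0.51 (SE) with edgeR adjusted p = 6.38e-09). Plxnd1 was at 16.5 and 10.8 and 72.6 and 91.6 CPM (log2 fold change of -2.60 ± 0.30 (SE) with edgeR adjusted p = 2.57e-08), and Plxna4 at 1.18 and 1.35 and 21.8 and 14.1 CPM (log2 fold change of -3.73 ± 0.67 (SE) with edgeR adjusted p = 3.73e-05). The ligand Sema4d and its receptor Plxnb2 were thus higher on opposite sides of this comparison.

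Other genes of the pathways were taken from 3 lists. Of 17 co-receptors and other receptors 9 were tested, and between fibroblast-like and mesothelial-like cells 2 were higher (Nrp1 and Flrt3) and 3 lower (Unc5b, Neo1 and Flrt2), with a median log2 fold change of -1.06 against 0.03 over all genes. The shares over all genes were 18.3% higher and 16.2% lower. Between mesothelial-like and endothelial-like cells 3 were higher and 5 lower, where 23.8% and 20.3% of all genes were. Flrt2, which binds Unc5 receptors, was at 271 and 305 CPM in mesothelial-like cells, 81.5 and 85.9 in fibroblast-like and 0 and 4.82 in endothelial-like cells (mesothelial-like minus endothelial-like log2 fold change of 6.88 ± 0.47 (SE) with edgeR adjusted p = 9.87e-17). Itgb1, the integrin beta chain that Sema7a can bind, was at 489 and 419 CPM in endothelial-like and 246 and 220.3 CPM in mesothelial-like ones (mesothelial-like minus endothelial-like log2 fold change of -0.90 ± 0.19 (SE) with edgeR adjusted p = 1.20e-04).

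Of 30 intracellular transducers 18 were tested, with 7 higher and 3 lower in fibroblast-like than in mesothelial-like cells, where 18.3% and 16.2% of all genes were; the lower count is near that background. Rnd1, which binds plexins, was at 338 and 379 CPM in mesothelial-like, 457 and 320.4 in endothelial-like and 17.6 and 39.3 in fibroblast-like cells (fibroblast-like minus mesothelial-like log2 fold change of -3.48 ± 0.20 (SE) with edgeR adjusted p = 4.37e-19). Arhgef12, which class B plexins bind, was at 271 and 365 CPM in mesothelial-like cells, beside 108 and 114 CPM in fibroblast-like ones (log2 fold change of -1.33 ± 0.16 (SE) with edgeR adjusted p = 1.14e-09). Dpysl2, the collapsin response mediator CRMP2, was at 333 and 357 CPM in fibroblast-like and 255 and 274 CPM in mesothelial-like ones (log2 fold change of 0.57 ± 0.20 (SE) with edgeR adjusted p = 0.0178). Ablim1, an actin-binding protein, was at 489 and 414 CPM in endothelial-like and 105 and 90.9 CPM in mesothelial-like ones (mesothelial-like minus endothelial-like log2 fold change of -2.19 ± 0.24 (SE) with edgeR adjusted p = 1.59e-10). Of 7 repulsive guidance and other cues 3 were tested: Rgma, a neogenin ligand, was at 60.4 and 81.0 CPM in mesothelial-like cells, beside 14.2 and 18.2 CPM in fibroblast-like ones (log2 fold change of -1.92 ± 0.33 (SE) with edgeR adjusted p = 8.11e-06). Flrt1 was at 49.2 and 54.3 and 0.566 and 0.569 CPM in the same classes (log2 fold change of -5.80 ± 0.70 (SE) with edgeR adjusted p = 9.88e-09), and Rgmb at 49.2 and 26.7 and 34.5 and 40.4 CPM (log2 fold change of 0.28 ± 0.35 (SE) with edgeR adjusted p = 0.583), which was not called.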

How the data were processed

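Whole-mesentery cells of 2 mice were profiled as 1 library each. The authors deposited raw UMI counts per gene and barcode, made with Cell Ranger against mm10 per the submitters' processing notes; its version, the annotation and the barcode threshold were not given in the sources used here. Libraries were told apart by the barcode suffix, matched to the mouse number. The families and gene lists were chosen with earlier results of these data known.

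A barcode was dropped below 200 genes or above 10% mitochondrial UMIs (61 in all), Scrublet doublets were removed in each library (39 and 4), and 3100 cells were clustered with scanpy 1.11.5 (2000 variable genes without the members and lists, 30 principal components, 15 neighbours, Leiden resolution 1.0). Clusters were named from marker lists. Raw UMI counts were summed per class and library, in 22 sums of 102071 to 1766359 UMIs, and tested with edgeR 4.0.16 in R 4.3.3 (quasi-likelihood F-test, TMM, low-count filter, Benjamini-Hochberg adjustment over all tested genes). The library was a replicate block in these fits, because each animal gave every class. With 2 libraries and this block, p-values rest on how far class levels differ between the libraries beyond the libraries' general difference. That spread is estimated jointly over the sums of a fit and does not measure the overall spread between the mice. The fit was tested on simulated data with 200 changed genes.

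The text names members whose mean reached 50 CPM in some class, up to 8 called members per direction of each signed comparison (largest change, average log2 CPM of 4 or more, same direction in both libraries), up to 4 genes per list with the highest mean, and textbook ligand-receptor pairs; other members with values in the text were chosen after their values were seen. Alternatives were resolutions 0.5 and 2.0, a stricter cell filter, no doublet removal, DESeq2 1.42.0 and its size factors, no low-count filter, no replicate block and each library left out of the classes compared, which leaves 1 sum per class and takes the spread from the other classes. Leaving out the dendritic-like cluster with fibroblast RNA, or the pericyte-like class, was added after seeing the data.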

Additional observations from a re-analysis of the deposited data

How the results depend on the processing

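Of 648 values of 54 fold changes under the alternatives, 620 kept direction and side of the threshold, 28 lost the call and 0 reversed. Of 48 values of 24 class levels, 14 moved by more than 1 SD of the 2 libraries. Of 134 counts of called members, 122 stayed within 1.5 times. With 1 library left out, the 5 members higher in fibroblast-like than in mesothelial-like cells became 2 to 3 and the 15 lower ones 8 to 13. Between lymphoid and myeloid cells the 1 higher member became 0 with DESeq2 and 0 to 1 with 1 library left out. The 15 lower ones became 9 at resolution 2.0, 8 to 15 with 1 library left out and 7 without the dendritic-like cluster with fibroblast RNA. Members called among myeloid classes fell from 13 to 8 without that cluster, and among lymphoid classes the 4 became 8 at resolution 2.0. There a cluster of 26 cells was named ILC2-like with a marker score of 0.74, beside a fibroblast one of 0.69. The ILC2-like sums rose from 173290 and 165944 UMIs to 197469 and 263285 UMIs. The part of these 26 cells in the lymphoid counts at resolution 2.0 was not tested. Among fibroblast-like clusters the 9 became 5 with DESeq2 and 17 with no low-count filter, which tested more members. The cause of the other changes was not tested. Without the replicate block, 7 fibroblast-cluster members were called and every other count above was the same. Joint tests among classes or clusters were not run with 1 library left out. For the tests over all classes and over the fibroblast-like clusters, no residual degrees of freedom would remain. Classes with few UMIs limit the rest: 3 UMIs are 29.4 CPM in NK/ILC1-like library 1.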

Other observations

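At the finer resolution of 2.0 the endothelial-like cells fell mostly into a small cluster (43 and 39 cells in libraries 1 and 2) and a large one (133 and 101), chosen for description after their values were seen, so their differences carry no test. The large cluster was not named at that resolution, with an adipocyte marker score of 2.87 beside an endothelial one of 2.95. The adipocyte genes Car3, at 345 and 458 CPM in the small and 923 and 1762 CPM in the large cluster, and Cfd, at 88.2 and 159 and 235 and 649 CPM, moved with this split, and their part in the values below was not tested. Efnb2 was at 294 and 291 CPM in libraries 1 and 2 of the small cluster and 58.1 and 103 CPM in the large one. Sema3g was at 184 and 291 CPM and 45.9 and 44.7 CPM. Both genes had higher values in the small cluster in each library and were among its 10 leading genes. Genes known from arterial endothelium did not all follow. Hey1, at 103 and 132 and 21.4 and 17.2 CPM, and Dll4, at 294 and 335 and 171 and 189 CPM, had higher values in the small cluster, whereas Sox17, at 301 and 238 and 455 and 340.1 CPM, had higher values in the large one. Of further arterial genes, Gja4 and Gja5 had higher CPM in the small cluster in each library, from at most 2 UMIs each. Bmx had 3 UMIs in the small cluster against 0 in the large one in library 1, and 0 against 1 in library 2. Of genes known from venous endothelium, Selp and Nr2f2 had higher CPM in the large cluster in each library. There Selp had 11 and 6 UMIs and Nr2f2 had 5 and 12. Ackr1 had 3 UMIs there in library 1 and no others. Robo4 had its higher values in the large cluster, at 125 and 132 CPM in the small and 263 and 282 CPM in the large cluster.

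Among members too low to be tested across classes, some had nearly all their UMIs in mesothelial-like cells. Epha1 was at 29.1 and 25.7 CPM there and had no UMI in the other 10 classes. Plxnb1, a Sema4d receptor, was at 26.9 and 42.5 CPM in mesothelial-like and 3.06 and 3.01 CPM in pericyte-like cells. Sema3a was at 17.9 and 41.5 CPM in mesothelial-like and 0 and 4.82 CPM in endothelial-like cells.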
